A study of Mus musculus with 12 samples.

Results

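Transcript levels of 10 Notch signaling genes were read in whole mouse adrenals, and activation of the receptors was not measured. The genes were the receptors Notch1, Notch2, Notch3 and Notch4, the ligands Dll1, Dll4, Jag1 and Jag2, and the target genes Hes1 and Hey1. They were selected by gene symbol from the 39017 genes of the count table, and all 10 had enough reads to be among the 14953 genes tested. The adrenals came from 12 female mice aged 10 to 11 weeks, with 1 RNA-seq library for each mouse as counted here. The 6 Ctrl mice carried AS Cre/+, a Cre recombinase expressed from the aldosterone synthase (Cyp11b2) locus. It is therefore active in aldosterone-producing cells of the zona glomerulosa, and a deletion it makes is kept by their descendants. The 6 βCat-GOF mice carried the same AS Cre/+ allele together with Ctnnb1 fl(ex3)/+, from which Cre removes exon 3 and leaves a β-catenin that resists degradation. The comparison asks what stabilized β-catenin in the zona glomerulosa lineage does to gene expression in the gland as a whole.

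Notch receptors are single-pass membrane proteins that are activated by ligands of the Delta-like and Jagged families on a neighboring cell. Ligand binding and endocytosis expose the receptor to cleavage by Adam10 and then by γ-secretase, and the freed intracellular domain joins Rbpj and a Mastermind protein on DNA to switch on repressors such as Hes1 and Hey1. In most vascularized tissues Notch1, Notch4 and Dll4 are typical of endothelium, and Notch3 is typical of vascular smooth muscle and pericytes. In the adrenal the zona glomerulosa lies beneath the capsule, makes aldosterone and depends on β-catenin.

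Libraries held between 14090378 and 25625494 counts in Ctrl and between 13484675 and 24951480 in βCat-GOF. The 7 markers of the steroid-producing cortex summed to between 838116 and 1825637 normalized counts (counts divided by a size factor for the library) over the 12 mice. Ctnnb1 itself read between 20273 and 22606 normalized counts in Ctrl and between 19229 and 22432 in βCat-GOF, and a count per gene does not show the loss of an exon. The labels of the Ctrl mice all begin with 1367 and those of the βCat-GOF mice with 1369, or 1387 in 1 mouse, so a family or batch that followed this number cannot be told apart from genotype. In 3 pairs of mice the labels share a stem, for example 1369-2 and 1369-2ear. Between the libraries of these pairs the chi-square per degree of freedom was between 41.9 and 45.8, inside the range of 16.8 to 145 for the other pairs of the same genotype. This shows that they are different libraries, not that they are different mice, and each was counted as 1 mouse.

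None of the 10 Notch genes passed the test of βCat-GOF against Ctrl adrenals, and their fitted levels lay between 31.4% below and 5.82% above Ctrl. By edgeR's quasi-likelihood test with Benjamini-Hochberg adjustment, 0 of 10 passed an adjusted p of 0.05, where 3.68% of all genes tested did (2.16% higher and 1.52% lower in βCat-GOF). The study also asked for a change of more than 1.4-fold and a mean normalized count above 100. With these cut-offs the count was again 0 of 10, against 2.35% of all genes (1.48% higher and 0.869% lower). At an unadjusted p under 0.05 there were 2, Notch2 and Notch3, where 20.4% of all genes were under that value. DESeq2 also passed 0 of 10, where it passed 4.05% of 16658 genes as higher and 3.41% as lower, with the same 2 at an unadjusted p under 0.05 and a lowest adjusted p of 0.0577 for Notch3. The groups overlapped for each of the 10 genes, whereas 2.78% of all genes tested had groups that did not overlap (1.16% with βCat-GOF lower). Exact two-sided permutation p for single genes, unadjusted, was 0.045 for Notch2, 0.0065 for Notch3 and between 0.24 and 0.994 for the other 8. Fitted levels were higher in βCat-GOF for 3 genes (Notch4, Jag1, Jag2) and lower for 7. The median log2 fold change of the 10 was -0.15, with 0.00011 for all genes tested.

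With all 12 mice, the upper 95% bound of the fold change was below 1.4 for all 10 genes, and the highest such bound was 1.37, for Jag2. For Hey1 and Jag2 this did not hold when 1 mouse was left out: the bound was 1.4 or more in 8 of 12 such fits for Hey1, up to 1.47 without 1367-5-2, and in 7 of 12 for Jag2, up to 1.47 without 1367-1. With 1 surrogate variable in the model it was 1.54 for each of them. For the other 8 genes it stayed below 1.4 in those fits. With all mice the whole interval lay within 1.4-fold in either direction for 6 genes (Notch1, Notch4, Dll1, Jag1, Jag2 and Hes1), and in each of the 12 fits without 1 mouse it did so for Notch4 and Jag1. Notch3 had the lowest bound, 0.52 of the Ctrl level. In whole-gland RNA, fewer cells of a type and less RNA per cell cannot be told apart, and a change restricted to a small cell population would be diluted by the rest of the gland.

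**Figure D1:**
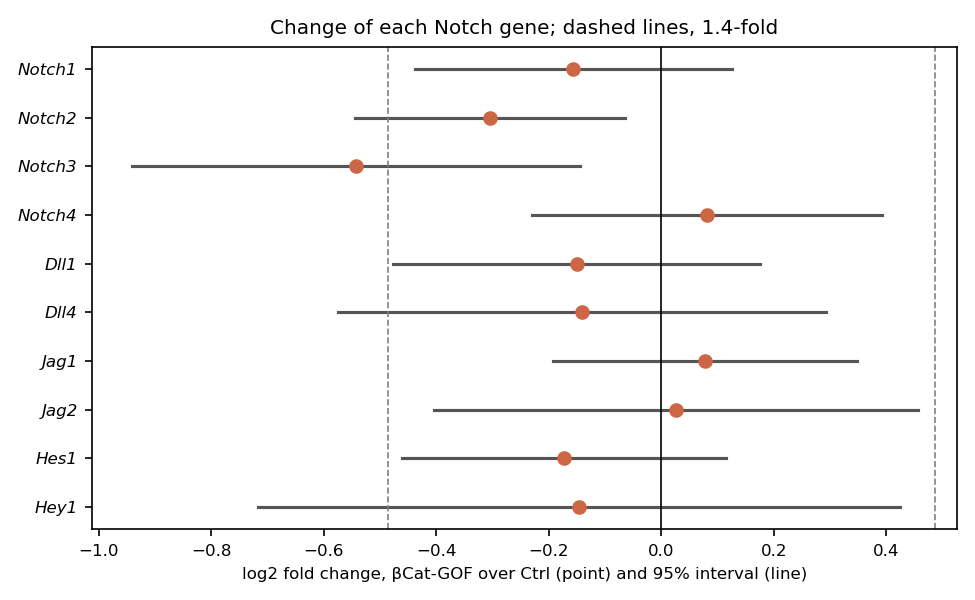
Log2 fold change of each Notch gene, βCat-GOF over Ctrl (x axis), with genes in rows; points are edgeR estimates from 6 and 6 mice, lines are 95% intervals and dashed lines mark a 1.4-fold change. The intervals of Notch2 and Notch3 lie below 0, and no interval reaches the 1.4-fold line on the right.

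Among the receptors, Notch2 (ENSMUSG00000027878, chr3:98013527-98150361 of GRCm38, plus strand) had by far the most reads. Its normalized counts in Ctrl ran from 1176 through a median of 1692 to 1932, and in βCat-GOF from 1188 through 1336 to 1561. All 6 βCat-GOF mice lay below the Ctrl median, yet 1 Ctrl mouse, 1367-5-2, was the lowest of all 12. Means were 1650.5 ± 273 (SD, n = 6) and 1345 ± 129 (SD, n = 6). The log2 fold change of Notch2 was -0.31 with SE 0.11 and an edgeR adjusted p of 0.15, and the exact two-sided permutation p was 0.045, unadjusted. Leaving out mouse 1367-5-2 gave a log2 fold change of -0.38 with an adjusted p of 0.034, and it was the only one of the 12 mice whose removal brought Notch2 past the threshold. Without the other mice in turn, adjusted p reached as high as 0.256. Without the 3 mice that repeat another label's stem, among them 1367-5-2, Notch2 stood at -0.35 with an adjusted p of 0.075.

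Notch3 (ENSMUSG00000038146, chr17:32120820-32166852, minus strand) had the largest difference of the 10 genes. Ctrl mice held 226 to 292 normalized counts with a median of 259, and βCat-GOF mice 96.6 to 234 with a median of 186. No βCat-GOF mouse exceeded the Ctrl median, and 4 of 6 lay below every Ctrl mouse. The fitted log2 fold change of Notch3 was -0.54 with SE 0.19, an edgeR adjusted p of 0.126 and an exact two-sided permutation p of 0.0065, unadjusted. The spread was wider in βCat-GOF, with a coefficient of variation of 29.1% against 8.99% in Ctrl. In none of the 12 fits that left out 1 mouse did Notch3 pass, and adjusted p then ranged from 0.097 to 0.225. Of the exon bases of Notch3 6.03% overlap Gm17276 on the opposite strand, and of those of Notch2 5.02% overlap Gm42820 on the same strand.

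Notch1 (ENSMUSG00000026923, chr2:26457903-26516663, minus strand) lay between 373 and 482 normalized counts in Ctrl, with a median of 419.7, and between 251 and 437 in βCat-GOF, with a median of 399. In βCat-GOF 2 mice lay below every Ctrl mouse, 1369-4 by a wide margin and 1369-2ear by less than 1 count, and the other four lay within the Ctrl range. The log2 fold change of Notch1 was -0.16 with SE 0.13 and an adjusted p of 0.537 by edgeR, and it ranged from -0.20 to -0.06 over the fits that left out 1 mouse. Opposite-strand genes, 0610009E02Rik and Gm13568, overlap 9.76% of its exon bases.

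Notch4 (ENSMUSG00000015468, chr17:34564268-34588503, plus strand) showed 381 to 549.8 normalized counts in Ctrl, median 435, and 376 to 694 in βCat-GOF, median 436. The medians were nearly equal and 1 βCat-GOF mouse, 1369-8, stood above the Ctrl range. Its log2 fold change was 0.08 with SE 0.14 and an adjusted p of 0.797 by edgeR, and the sign turned, to -0.055, without mouse 1369-8.

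Dll4 (ENSMUSG00000027314, chr2:119325784-119335962, plus strand) was the ligand with the highest level for its length, and its product is a ligand of the Delta-like family known from sprouting vessels. It ranged from 239 through a median of 342 to 386 normalized counts in Ctrl and from 182 through 294 to 445 in βCat-GOF. The βCat-GOF values extended beyond the Ctrl range on both sides. The log2 fold change of Dll4 was -0.14 with SE 0.20 and an adjusted p of 0.741 by edgeR.

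Jag1 (ENSMUSG00000027276, chr2:137081456-137116644, minus strand), the Jagged ligand needed for bile duct and vessel development, held 226 to 298 normalized counts in Ctrl, median 268, and 219 to 339 in βCat-GOF, median 290.0. Of the 6 βCat-GOF mice, 4 were above the Ctrl median and 1 was below all Ctrl mice. The log2 fold change of Jag1 was 0.08 with SE 0.13 and an adjusted p of 0.777 by edgeR.

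The remaining ligands had fewer reads. Dll1 (ENSMUSG00000014773, chr17:15367354-15376872, minus strand) lay between 80.8 and 110.0 normalized counts in Ctrl, median 88.5, and between 67.1 and 104 in βCat-GOF, median 82.8. Jag2 (ENSMUSG00000002799, chr12:112907819-112929776, minus strand) lay between 74.7 and 112 in Ctrl, median 88.7, and between 54.6 and 117 in βCat-GOF, median 98.0. Neither ligand separated the genotypes, with log2 fold changes of -0.15 ± 0.15 (SE) for Dll1 and 0.03 ± 0.20 (SE) for Jag2 and edgeR adjusted p values of 0.620 and 0.960. In Dll1, 20.5% of the exon bases overlap A930024N18Rik on the opposite strand, and reads of this pair cannot be separated where the counting ignored strand, a setting not given in the sources used here.

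Hes1 (ENSMUSG00000022528, chr16:30064384-30067796, plus strand), a basic helix-loop-helix repressor and a common readout of Notch activity, ranged from 282 through a median of 446 to 481 normalized counts in Ctrl and from 332 through 364 to 447 in βCat-GOF. Only 1 of 6 βCat-GOF mice exceeded the Ctrl median, and again the lowest value of all belonged to Ctrl mouse 1367-5-2. Hes1 had a log2 fold change of -0.17 with SE 0.13 and an edgeR adjusted p of 0.498. In the 12 fits that left out 1 mouse, it stayed between -0.26 and -0.13.

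Hey1 (ENSMUSG00000040289, chr3:8663359-8667256, minus strand), a related repressor prominent in arteries, was the least counted of the 10 genes, with 37.5 to 73.9 normalized counts in Ctrl, median 61.7, and 36.4 to 82.7 in βCat-GOF, median 41.3. The highest and the lowest values of all 12 mice were both in βCat-GOF. Its log2 fold change was -0.15 with SE 0.27, the largest SE of the 10, and an edgeR adjusted p of 0.801.

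**Figure D2:**
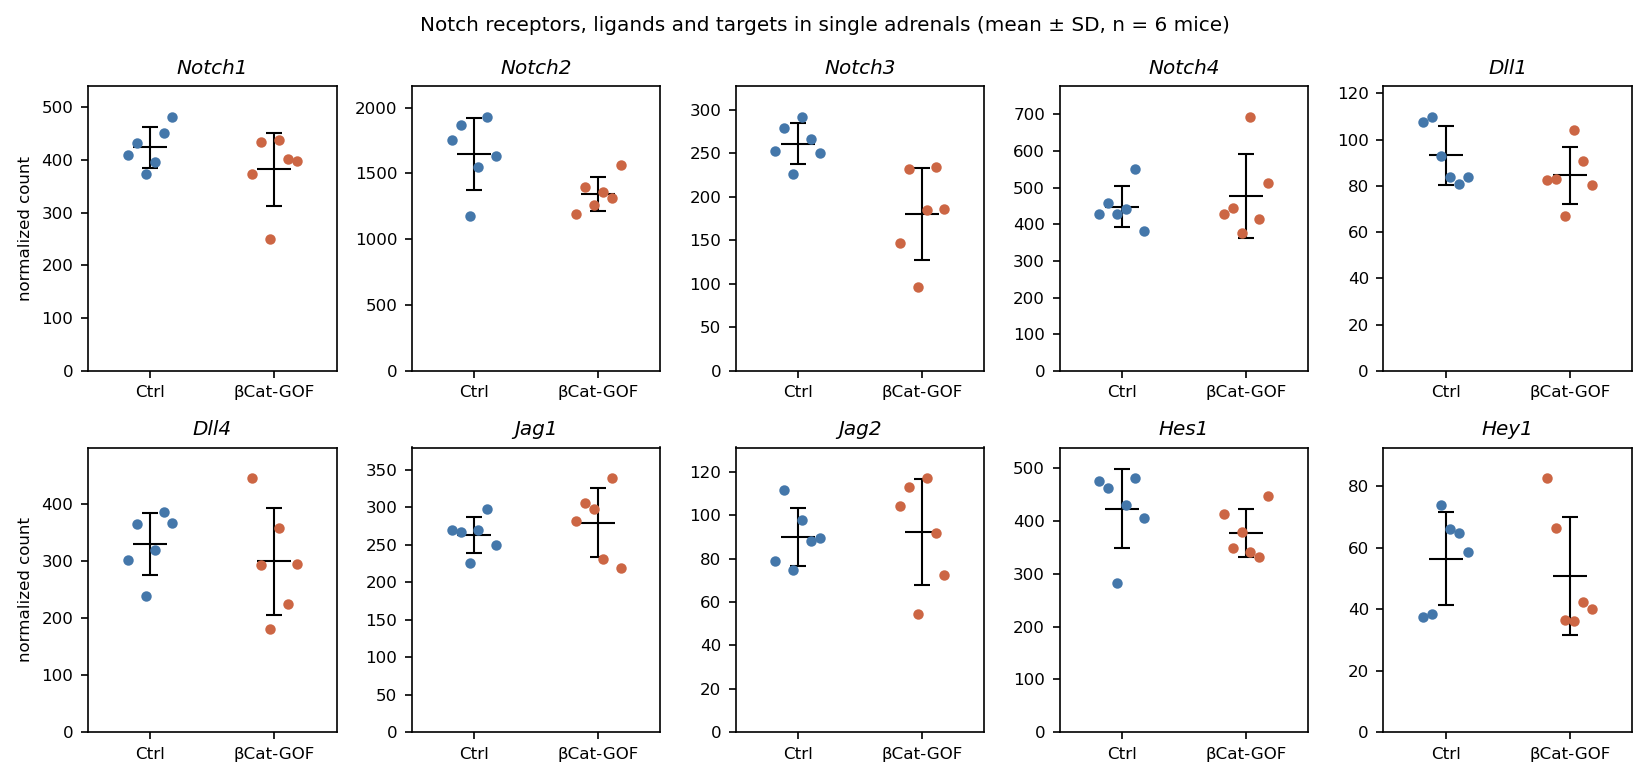
Normalized counts (y axes, from 0) of the 10 Notch genes in Ctrl and βCat-GOF adrenals; each point is 1 mouse, and bars give the mean and SD of 6 mice. The groups overlap in all 10 panels, and 4 of 6 βCat-GOF mice lie below every Ctrl mouse for Notch3.

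Levels were compared between genes after division by exon length, as FPKM. In Ctrl the order was Hes1 (10.4 FPKM), Notch2 (7.66), Dll4 (4.28), Notch4 (2.78), Jag1 (2.26), Notch3 (1.61), Notch1 (1.49), Dll1 (1.11), Hey1 (0.867) and Jag2 (0.647). From Hes1 down to Jag1, each gene was above the next one in all 6 Ctrl mice. Lower down, Notch1 was above Dll1 in 6 of 6 Ctrl mice, whereas the other neighbors were not separated: Notch3 exceeded Notch1 in 5 of 6, Dll1 exceeded Hey1 in 3 of 6 and Hey1 exceeded Jag2 in 5 of 6. In βCat-GOF the same order held except that Notch1 (1.34 FPKM) stood above Notch3 (1.11 FPKM). This last pair also changed places in Ctrl when the longest transcript was used as gene length.

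Notch2 supplied 56.3% ± 3.24 (SD, n = 6) of the summed receptor FPKM in Ctrl and 53.8% ± 4.28 (SD, n = 6) in βCat-GOF. Dll4 supplied 51.3% ± 3.54 of the summed ligand FPKM in Ctrl and 48.0% ± 8.23 in βCat-GOF (SD, n = 6 each). Notch2 and Dll4 had the highest share of their class in both genotypes.

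**Figure D3:**
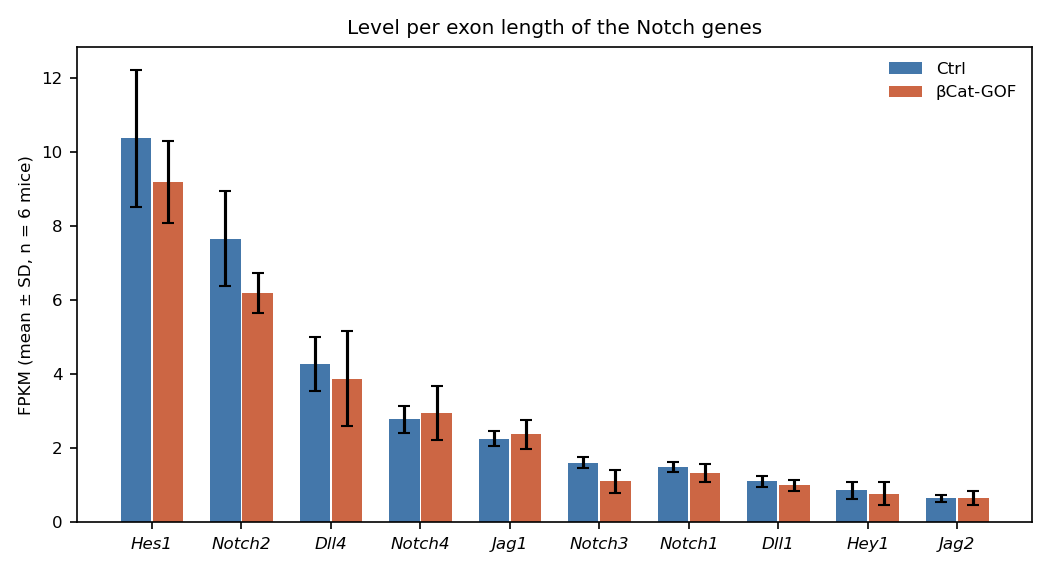
FPKM (y axis, from 0) of the 10 Notch genes in the order of their Ctrl means; bars are means of 6 mice with SD. Hes1 and Notch2 lead in both genotypes, and Notch3 stands above Notch1 in Ctrl but below it in βCat-GOF.

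Variation among mice was larger in βCat-GOF. The coefficient of variation was larger there for 8 of 10 genes, the exceptions being Notch2 and Hes1. Its median over the 10 genes was 21.0% against 14.3% in Ctrl. The share of all genes tested with a larger value in βCat-GOF was not counted. The wider spread was not particular to the Notch genes, as most lists of cell-type markers showed it too. The SD of log2 CPM was 0.62 against 0.22 in Ctrl for zona glomerulosa markers and 0.51 against 0.15 for cortex markers. Only the medulla (0.32 against 0.56) and fat (0.46 against 0.93) lists went the other way. One βCat-GOF mouse, 1369-4, had the lowest value of all 12 mice for 6 genes (Notch1, Notch3, Notch4, Dll1, Dll4 and Jag2). The same mouse had the lowest summed mural, capsule and zona glomerulosa markers among βCat-GOF mice. Without it, no Notch gene passed the threshold either.

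After removal of the genotype means, some Notch genes varied together from mouse to mouse. Among the 45 pairs the highest Pearson r on log2 CPM over 12 mice were Notch1 with Notch3 (0.82, Spearman's rho 0.53), Hes1 with Notch2 (0.79, rho 0.52) and Jag2 with Notch1 (0.79, rho 0.59). These values describe libraries that share depth and gland composition, and in each of these pairs rho was lower than r. The genes most like each receptor were Ppp1r3e for Notch1 (r = 0.90), Zcchc7 for Notch2 (0.95), Lrba for Notch3 (0.91) and Cd2bp2 for Notch4 (0.94), out of 11431 genes searched. For the ligands they were Trim28 for Dll1 (0.88), D930048N14Rik for Dll4 (0.95), Nt5c2 for Jag1 (0.89) and Cic for Jag2 (0.95). For the targets they were Usp3 for Hes1 (0.90) and Pik3r3 for Hey1 (0.95). No test was made of these values.

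Markers of the cells that could supply Notch transcripts were read beside these results. Of 15 endothelial markers 13 had a lower mean in βCat-GOF and 0 passed an adjusted p of 0.05, and their summed level was 20565 to 25230 normalized counts in Ctrl and 18378 to 25288 in βCat-GOF. Of 9 mural markers tested 7 were lower on average and 0 passed, with sums of 4911 to 5766 and 3980 to 6462. The mural marker Cnn1 had a mean under 10 normalized counts. Of 6 arterial markers 4 were higher on average and 0 passed, with sums of 539.5 to 895 and 631 to 990.2. No listed marker was at 0 in all mice, and the part of these cells in the Notch values was not tested.

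Hey1 with the arterial markers gave r = 0.83 and rho = 0.81 over the 12 mice after removal of genotype means, and r = 0.73 without the 2 mice farthest from the median. With the zona glomerulosa markers Hey1 gave r = 0.66, rho = 0.64 and r = 0.58 without 2 mice. With the medulla markers it gave r = 0.63, rho = 0.65 and r = 0.48 without 2 mice. With the capsule markers Hey1 gave r = 0.62 and 0.74 without 2 mice, and with the glia markers r = 0.49 and 0.86 without 2 mice. Against the cortex markers Hey1 ran the other way, with r = -0.81, rho = -0.73 and r = -0.70 without 2 mice. It also did so against the zona fasciculata markers (r = -0.72, and -0.36 without 2 mice) and the endothelial markers (r = -0.59, and -0.50 without 2 mice). Notch1 with the mural markers gave r = 0.72, which became -0.02 without mice 1369-8 and 1369-4. The relation of Dll4 to the arterial markers, r = 0.60, likewise dropped to 0.12 without 1369-2ear and 1369-4. Notch3, typical of mural cells elsewhere, gave r = 0.46 with the mural markers and rho = -0.15, and r = -0.44 without 1369-8 and 1369-4. Notch2 gave r = 0.51 with the endothelial markers and rho = 0.50, over the same 12 mice, and r = 0.75 without 1369-8 and 1369-2. Notch1 gave r = 0.52 and rho = 0.43 with the endothelial markers, and r = 0.67 without the same 2 mice. Notch4 gave r = 0.62 and rho = 0.34 with the endothelial markers, and r = 0.28 without 1369-8 and 1369-2. These are some of 130 pairs of a Notch gene and a marker list. They are descriptions over 12 libraries and carry no test.

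Beyond the 10 genes, 60 of 67 other listed genes of the Notch pathway could be tested, and 5 of them (8.33%, beside 3.68% of all genes tested) passed an adjusted p of 0.05. Of the 5, Neurl1b and Hes6 passed as higher in βCat-GOF (2.16% of all genes did) and Lfng, Pofut1 and Dtx3l as lower (1.52%). All 5 also passed the cut-offs of the study, as did 2.35% of all genes tested. The median log2 fold change of the 60 was 0.0021, beside 0.00011 for all genes tested. Genes at an unadjusted p under 0.05 numbered 14 of 60, beside 20.4% of all genes. DESeq2 passed 8, adding Dner, Dtx1 and Maml2, with 2 higher and 6 lower. Of the 16658 genes it judged, 4.05% passed as higher and 3.41% as lower.

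Neurl1b (ENSMUSG00000034413), a ubiquitin ligase of the Neuralized family that acts on Notch ligands during their endocytosis, gave the clearest difference. Ctrl mice held 319 to 527 normalized counts, median 408, and βCat-GOF mice 688 to 2086, median 1102, so that the groups did not overlap. Means were 402 ± 72.7 and 1224 ± 549.9 (SD, n = 6 each). Neurl1b rose by a log2 fold change of 1.60 with SE 0.26, a 3.04-fold increase with a 95% interval of 2.07 to 4.46 and an edgeR adjusted p of 0.0041. It passed in 18 of 18 distinct alternative fits. Of the other 5 tested genes of ligand endocytosis none passed, and Epn2, an epsin, had a log2 fold change of -0.17 with an adjusted p of 0.318.

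Hes6, a basic helix-loop-helix protein known to oppose Hes1, read 1464 to 2699.7 normalized counts in Ctrl, median 2337, and 1983 to 8194 in βCat-GOF, median 4755. In βCat-GOF 5 of 6 mice stood above every Ctrl mouse. Hes6 rose by a log2 fold change of 1.05 with SE 0.26 and an edgeR adjusted p of 0.042, and this held in 2 of 12 fits that left out 1 mouse, those without 1369-2ear and without 1369-2. The edgeR adjusted p reached 0.0884 in the other fits of this kind, and 0.225 among the remaining alternatives. Over all alternatives the log2 fold change of Hes6 ran from 0.66 to 1.28. Hes6 was placed on the list of targets, and whether it responds to Notch in these adrenals was not tested. The other tested genes of that list had lower means in βCat-GOF, and none passed. Of these Hey2 had the lowest p, with a log2 fold change of -0.52 and an edgeR adjusted p of 0.319.

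The 3 genes that fell are from the lists of receptor glycosylation and receptor turnover. Pofut1, the O-fucosyltransferase that modifies the receptors' extracellular repeats, had 3173 to 5325 normalized counts in Ctrl, median 4175, and 2243 to 3206 in βCat-GOF, median 2989. Lfng, the Fringe enzyme that extends this O-fucose, had 219 to 357 in Ctrl, median 301, and 184 to 227 in βCat-GOF, median 208. For each of them 5 of 6 βCat-GOF mice lay below every Ctrl mouse. Pofut1 fell by 0.53 on the log2 scale (SE 0.13, edgeR adjusted p = 0.0397) and Lfng by 0.51 (SE 0.13, edgeR adjusted p = 0.0498). Pofut1 kept its call only without 1367-5-2, without 1367-5 or without 1369-2ear, and lost it in the other fits that left out a mouse, with adjusted p up to 0.0811. Among the fits that left out a mouse, Lfng kept its call only without 1367-1 or without 1367-7, with adjusted p up to 0.117 in the rest. Of the other 4 genes of receptor glycosylation tested none passed.

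Dtx3l, a ubiquitin ligase of the Deltex family, ranged from 372 to 622 normalized counts in Ctrl, median 503, and from 249.9 to 394 in βCat-GOF, median 325, with 5 of 6 βCat-GOF mice below every Ctrl mouse. It fell by 0.59 on the log2 scale (SE 0.15, edgeR adjusted p = 0.044). Among the fits that left out a mouse, Dtx3l kept its call only without 1367-5, 1367-10 or 1369-2ear, with adjusted p up to 0.0905 in the rest. Dtx1, of the same family, had a log2 fold change of -0.60 with an adjusted p of 0.104, and 0.0287 without 1369-2ear.

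**Figure D4:**
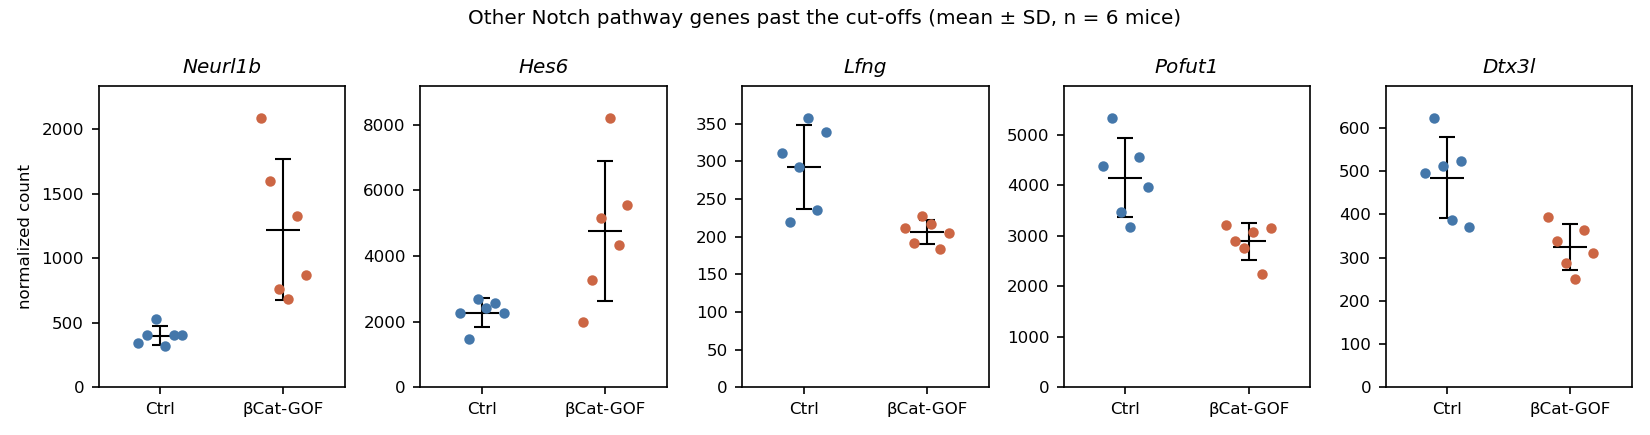
Normalized counts (y axes, from 0) of the 5 other pathway genes past the cut-offs in Ctrl and βCat-GOF adrenals; each point is 1 mouse, and bars give the mean and SD of 6 mice. Only Neurl1b has groups that do not overlap, from 319 to 527 in Ctrl and from 688 to 2086 in βCat-GOF.

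No gene of the cleavage, nuclear complex and co-repressor lists passed. Rbpj, the DNA-binding partner of the receptor's intracellular domain, had a log2 fold change of 0.27 ± 0.13 (SE) and an edgeR adjusted p of 0.268, and the coactivator Maml2 one of -0.51 ± 0.17 (SE) with an adjusted p of 0.118. Of the 10 cleavage genes the lowest p belonged to Aph1b, a γ-secretase subunit, at -0.46 with an adjusted p of 0.161, and to Furin, which cuts the receptor during its maturation, at 0.24 with an adjusted p of 0.204. Among the 13 co-repressors these were Tle2, of the Groucho family, at 1.08 with an adjusted p of 0.150, and the deacetylase Hdac1 at -0.23 with an adjusted p of 0.185. The non-classical ligands Dlk1 and Dner had log2 fold changes of -0.74 and -0.87 with adjusted p values of 0.141 and 0.099. Without Ctrl mouse 1367-1-2 these became 0.036 for Dlk1 and 0.0247 for Dner, and Maml2 then reached 0.0461. The genes with too few reads to test were Dll3, Dlk2, Rbpjl, Hes2, Hes3, Hes5 and Hes7, none of which exceeded 7 counts in any mouse.

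**Figure D5:**
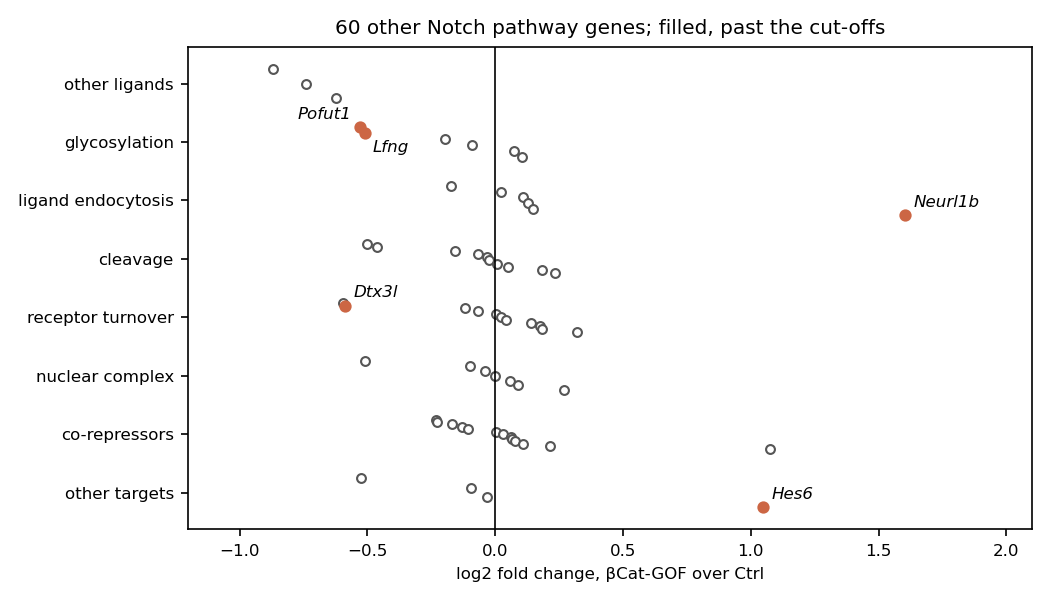
Log2 fold change (x axis), βCat-GOF over Ctrl, of the 60 other Notch pathway genes tested, in rows by role; each point is 1 gene and filled points passed the cut-offs of the study. Most points lie near 0, with Neurl1b and Hes6 to the right and Pofut1, Lfng and Dtx3l to the left.

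Some markers of zona glomerulosa, zona fasciculata and macrophages also passed an adjusted p of 0.05 in the same comparison, as did 3.68% of all genes tested. Of 11 zona glomerulosa markers 10 had a higher mean in βCat-GOF and 4 passed an adjusted p of 0.05 (Agtr1a, Agtr1b, Vsnl1 and Dab2). The exception was Cyp11b2, the aldosterone synthase gene, with a log2 fold change of -0.18 and an edgeR adjusted p of 0.820. The sums of the 11 were 27070 to 41836 normalized counts in Ctrl and 38037 to 69838 in βCat-GOF. Of 6 zona fasciculata markers 4 had a higher mean and 2 passed, Akr1b7 (edgeR adjusted p = 0.0458) and Mrap (0.0433). Log2 fold changes of the 6 ran from -1.05 for Srd5a2 to 1.48 for Akr1b7. Their sums were 321133 to 397709 in Ctrl and 195348 to 573681 in βCat-GOF. Of 8 macrophage markers 7 had a lower mean and 2 passed, with sums of 7480 to 14531 and 5778 to 9899. Their lowest edgeR adjusted p was 0.0459, and 1 passed the cut-offs of the study. Of 9 medulla markers 8 had a lower mean and 0 passed. The part of these cell types in the values of Neurl1b, Hes6, Lfng, Pofut1 and Dtx3l was not tested.

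Proximal promoters were searched for the core letters TGGGAA of an Rbpj site and CTTTGA or CTTTGT of a TCF/LEF site, on both strands, in the 250 bases before each RefSeq start (GRCm38.p6). Of the 10 Notch genes 8, the receptors and the ligands, had an entry, with 9 windows between them. The target genes Hes1 and Hey1 had no entry and were not searched. The Rbpj core was in 0 of the 9, against 21.6% of 32851 mouse promoters, and the TCF/LEF core in 1 of 9, in front of a second Dll1 start, against 27.6%. Of the 5 other pathway genes that changed, Lfng had 2 Rbpj cores and 1 TCF/LEF core, Hes6 had TCF/LEF cores before both of its starts, and Neurl1b, Pofut1 and Dtx3l had neither. A few windows are shown, Notch2 and Notch3 as the Notch genes with the lowest p, Neurl1b as the clearest change, and Lfng as the one that holds both cores. Letters run 5′ to 3′ on the gene's strand, with core matches in capitals.
Notch2, chr3:98013288-98013537, plus strand: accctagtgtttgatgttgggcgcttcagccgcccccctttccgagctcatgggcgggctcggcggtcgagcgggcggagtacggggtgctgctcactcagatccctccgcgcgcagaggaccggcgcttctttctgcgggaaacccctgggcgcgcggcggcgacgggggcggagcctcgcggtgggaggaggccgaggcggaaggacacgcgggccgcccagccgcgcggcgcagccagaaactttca
Notch3, chr17:32166891-32167140, minus strand: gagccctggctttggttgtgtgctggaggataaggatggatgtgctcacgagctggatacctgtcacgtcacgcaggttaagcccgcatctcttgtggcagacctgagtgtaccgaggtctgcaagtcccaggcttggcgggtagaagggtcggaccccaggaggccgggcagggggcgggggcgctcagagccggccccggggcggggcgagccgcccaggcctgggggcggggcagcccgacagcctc
Neurl1b, chr17:26414609-26414858, plus strand: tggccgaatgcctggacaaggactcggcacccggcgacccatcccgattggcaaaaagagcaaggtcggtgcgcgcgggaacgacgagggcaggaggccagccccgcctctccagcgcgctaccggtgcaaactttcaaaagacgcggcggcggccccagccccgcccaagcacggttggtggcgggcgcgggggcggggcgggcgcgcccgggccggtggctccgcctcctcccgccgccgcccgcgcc
Lfng, chr5:140607091-140607340, plus strand: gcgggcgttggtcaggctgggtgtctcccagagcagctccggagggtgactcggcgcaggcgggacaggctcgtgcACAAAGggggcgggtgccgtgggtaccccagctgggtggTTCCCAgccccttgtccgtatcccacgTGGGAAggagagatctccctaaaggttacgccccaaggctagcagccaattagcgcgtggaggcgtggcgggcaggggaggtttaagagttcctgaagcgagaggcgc

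In the Lfng window the capitals begin 174 bases before the start for the TCF/LEF core and 135 and 108 bases before it for the Rbpj cores. The other three windows are in lower case throughout. A match describes letters only, and a window without one says nothing about the factor elsewhere at the gene.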

How the data were processed

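RNA from whole adrenals of 6 Ctrl and 6 βCat-GOF mice was sequenced, 1 library a mouse. The authors deposited raw counts per gene, made by alignment with STAR to mm10 and featureCounts 1.4.4 on uniquely mapping reads. A second deposited table holds normalized counts (a signal scaled by the authors with DESeq2 1.6.3, found here to be the counts divided by 1 factor a library) and was used for gene symbols. The annotation release and strand setting are not given in the sources used here. The Notch genes, the pathway and marker lists and the tests were chosen with earlier results of these data known.

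All counts were fitted with edgeR 4.0.16 in R 4.3.3 (filterByExpr, TMM, quasi-likelihood test, genotype as the sole term), with Benjamini-Hochberg adjustment over 14953 genes. SEs are the absolute log2 fold change over the square root of F. Normalized counts in the text use DESeq2 1.42.0 size factors. FPKM used TMM library sizes and the union of GENCODE M21 exons (GRCm38, the same assembly as mm10). Exact permutation tests used all 924 arrangements of log2(normalized count + 1), for which the smallest p is 0.0022. Library totals were 13484675 to 25625494 counts. Alternatives were DESeq2, its size factors, other filters, 1 surrogate variable (sva 3.50.0), a stricter threshold and fits without certain mice. The test was checked on simulated data. Named genes were the 10 Notch genes, each called pathway gene and otherwise at most the 2 lowest p of each role. Of the pathway list 1 entry, Kyat1, was listed in error, matched no symbol and was left out. Whether the mice came from separate litters is not given in the labels. The p-values set the difference between genotypes against the spread among mice of a genotype, counting each mouse as independent.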

Additional observations from a re-analysis of the deposited data

Results flagged for a closer look

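Of 52 groups of 6 mice examined, 3 held a mouse far from the others, and chance flags about 1 in 20 groups. Notch1 in βCat-GOF mouse 1369-4 was 251 normalized counts, where the next lowest βCat-GOF mouse was at 373 and the highest at 437. Furin in βCat-GOF mouse 1369-8 was 4239 normalized counts, above a next highest of 3363. Hes6 in Ctrl mouse 1367-1 was 1464 normalized counts, below a next lowest of 2269.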

How the results depend on the processing

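For the 10 Notch genes, the count that passed an adjusted p of 0.05 stayed at 0 in both directions, as did the count past the cut-offs of the study, except for 1 lower gene, Notch2, without Ctrl mouse 1367-5-2 (range 0 to 1 over fits without 1 mouse). Signs turned for log2 fold changes near 0: Notch4 ranged from -0.055 to 0.15 and Jag2 from -0.054 to 0.136 over fits without 1 mouse, Jag2 was -0.12 without the mice that share a label stem, and with 1 surrogate variable Dll4 was 0.034 and Hey1 0.18. The causes were not tested. For the pathway list, with 2 higher and 3 lower genes and 5 past the cut-offs, DESeq2 gave 6 lower and 8 past the cut-offs, no filter on counts gave 1 lower and 3 past them, and 1 surrogate variable gave 4 higher, 0 lower and 3 past them. Without the mouse labelled 1387-8 there were 1 higher, 0 lower and 1 past them. An adjusted p under 0.01 left 1 higher and 0 lower. Over fits without 1 mouse the ranges were 1 to 2 higher, 0 to 3 lower and 1 to 5 past the cut-offs. Neurl1b passed in 18 of 18 distinct alternatives. No paired analysis was possible because the labels give the groups no shared replicate numbers. Hey1, Jag2 and Dll1 had the fewest reads of the 10 genes, with lowest raw counts of 23, 61 and 60. How far low counts add to their SE was not tested.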
